A study of Mus musculus with 6 samples.

Results

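Ribosomal protein genes were taken by symbol: names that begin with Rpl, Rps, Mrpl or Mrps and go on with a digit, together with Rplp0, Rplp1, Rplp2 and Rpsa. The 10 Rps6k kinase genes, which do not encode ribosome parts, and 11 names marked -ps were left out. The rule gave 167 of the 21233 genes listed, of which 89 belong to the cytosolic set and 78 to the mitochondrial set. The cytosolic set held 77 core proteins (46 of the large and 31 of the small subunit) and 12 other genes. Those 12 are the paralogs Rpl3l, Rpl6l, Rpl7l1, Rpl22l1, Rpl32l, Rpl36al, Rpl39l and Rps27l, the retrogenes Rpl37rt, Rps27rt and Rps23rg1, and Rps19bp1, whose product binds RPS19. The mitochondrial set held 49 large-subunit and 29 small-subunit names, among them Mrps36, a name now given to a part of the ketoglutarate dehydrogenase complex. A filter on low counts left 13255 genes to test, including 166 of the 167 members. Rpl3l, the muscle paralog of Rpl3, did not pass it, with 0 counts in each control library and 1, 1 and 5 counts in the sorafenib libraries.

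The libraries were made from total RNA of mouse Th9 cells, the CD4 helper subset known for interleukin 9. In 3 libraries the cells had received sorafenib, a multikinase inhibitor of RAF and receptor tyrosine kinases, and 3 control libraries came from cells that had not. Mouse strain, sex, age, sorafenib dose, exposure time and any vehicle for the control cells are not stated by the labels, and neither is whether libraries came from separate cultures or animals. The p-values therefore measure only the spread between these libraries, which may be technical.

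Cytosolic ribosomes translate the messages of the nucleus, and their protein genes are among the most strongly expressed in growing cells. Most of their transcripts carry a run of pyrimidines at the very start, the 5′ terminal oligopyrimidine (TOP) tract, through which mTOR signalling controls their translation. Mitochondrial ribosomes are built from a separate set of nuclear-encoded proteins that are imported into the organelle, where they make the membrane subunits of the respiratory chain encoded in mitochondrial DNA. Activated T cells build up both kinds of ribosome as they begin to grow.

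Library totals ran from 36981476 to 38126521 counts, and a floor of 3 counts corresponded to 0.0766 to 0.0871 CPM (counts scaled to a common library size, here with edgeR's TMM factors). All 6 markers listed for Th9 and CD4 T cells were in the table, with a summed level of 2373 to 2661 CPM in control and 2347 to 2434 CPM in sorafenib libraries. Of these, Il9 and Gata3 were called higher with sorafenib, with log2 fold changes of 0.47 (adjusted p = 0.0036, edgeR) and 0.53 (adjusted p = 0.0046), and Cd3e was called lower, at -0.31 (adjusted p = 0.013). Cd3d, Irf4 and Cd4 were not called, at -0.29, -0.22 and 0.06. Of the B cell markers, Cd79a was at 1.26 to 3.48 CPM in control and 4.09 to 5.95 CPM in sorafenib libraries, where it was called higher (adjusted p = 0.023, edgeR), and Ms4a1 stayed under the floor. The 2 CD8 markers summed to 6.16 to 7.08 CPM against 8.88 to 11.1 CPM, and 1 of the 2 was called higher. The 4 myeloid markers summed to at most 0.664 CPM. The neutrophil marker Ly6g, the only one of its 3 in the table, was at 3.33 to 3.48 CPM against 0 to 0.0521 CPM. It was called lower with sorafenib, with a log2 fold change of -6.86 (adjusted p = 1.1e-05, edgeR). The part of these low levels in the ribosomal protein values was not tested. In bulk RNA, fewer cells of a type and less RNA per cell cannot be told apart.

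Control 2 stood apart from the other libraries. The chi-square statistic of its counts, per gene, was 62.4 against control 1 and 50.7 against control 3, while it was 15.3 between controls 1 and 3 and at most 13.5 between sorafenib libraries. Counts for the cytosolic and mitochondrial sets and for the lists of related genes are therefore given with and without this library.

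The cytosolic core was expressed far above the mitochondrial set when compared per length. Over the 6 libraries the median level of the 77 core genes was 2016 FPKM (fragments scaled by gene length and library size), and that of the 78 mitochondrial genes was 18.3 FPKM. Rplp1, which encodes an acidic protein of the ribosomal stalk, was the highest of the core, at 5562, 7133 and 4604 FPKM in controls 1 to 3 and 5705, 6233 and 6066 FPKM in the sorafenib libraries. Rplp0, which anchors the stalk to the large subunit, followed at 4964, 6032 and 5507 FPKM in control and 5636, 5235 and 5422 FPKM in sorafenib libraries. The ranges of these neighbours overlapped, so their order did not exceed the spread between libraries. At the other end stood Rpl21 with a mean of 161 FPKM and Rps15a with a mean of 275 FPKM, core genes of the large and the small subunit with near-identical copies elsewhere in the genome. The counting of reads shared between copies is not stated by the labels, which makes these low levels uncertain.

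Among the mitochondrial genes, Mrpl52 led with a mean of 99.1 FPKM and Mrpl33, a small protein of the large subunit, followed with 74.9 FPKM. The lowest were Mrps25 with 2.40 FPKM and Mrpl14 with 4.20 FPKM. The 11 other cytosolic genes that were tested had a median of 42.4 FPKM. They ran from 0.332 FPKM for the retrogene Rps23rg1 to 612 FPKM for Rpl22l1, the paralog of Rpl22 that is known to act against it in T cell development.

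The start sites of several members are shown because some of them hold CTTTCC, from the pyrimidine run at the start of TOP genes, and because these genes recur in the results. The windows with CTTTCC are not typical of the core, where 10 of 67 windows (14.9%) held these letters near the start. Sequences are from RefSeq on GRCm38.p6, cover 60 bases before and 20 bases from the annotated start onward, and are written 5′ to 3′ on the gene's strand. Capitals mark matches to CTTTCC on the gene's strand and, on either strand, to CCGGAAG, a core site of ETS factors, AAGATGGC, a YY1 site, or the palindromic NRF1 site.
Rpl38: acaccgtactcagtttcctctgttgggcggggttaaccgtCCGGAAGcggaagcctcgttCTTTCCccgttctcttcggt
Rps27: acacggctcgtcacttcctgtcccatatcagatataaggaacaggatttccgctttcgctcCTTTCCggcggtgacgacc
Rpl35a: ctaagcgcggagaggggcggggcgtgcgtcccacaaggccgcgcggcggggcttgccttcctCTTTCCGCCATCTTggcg
Rps27l: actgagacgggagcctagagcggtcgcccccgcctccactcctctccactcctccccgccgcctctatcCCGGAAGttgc
These windows lie at chr11:114668520-114668599 on the plus strand for Rpl38, chr3:90213629-90213708 on the minus strand for Rps27, chr16:33056422-33056501 on the plus strand for the second of its 3 annotated starts of Rpl35a, and chr9:66946026-66946105 on the plus strand for the first of 2 starts of Rps27l. In Rpl35a the YY1 letters follow CTTTCC directly, on the opposite strand. Rps27l, the paralog of Rps27 and a known p53 target, carried no CTTTCC in its window.

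The mitochondrial windows below are those of the mitochondrial members with the largest positive log2 fold changes, and of Mrpl51, the one with the largest negative value.
Mrps6: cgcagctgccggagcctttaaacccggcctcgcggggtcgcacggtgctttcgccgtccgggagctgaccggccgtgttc
Mrpl47: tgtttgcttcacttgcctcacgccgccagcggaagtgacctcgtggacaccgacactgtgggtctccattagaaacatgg
Mrpl16: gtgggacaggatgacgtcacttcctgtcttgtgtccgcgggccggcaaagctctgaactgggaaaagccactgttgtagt
Mrpl51: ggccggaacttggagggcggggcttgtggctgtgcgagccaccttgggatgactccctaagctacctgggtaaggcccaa
They lie at chr16:92058276-92058355 on the plus strand for Mrps6, chr3:32736736-32736815 on the minus strand for Mrpl47, chr19:11770355-11770434 on the plus strand for Mrpl16 and chr6:125192140-125192219 on the plus strand for Mrpl51. None of the 4 windows held any of the letters searched. RefSeq's table gave 67 windows for 57 of the 77 core genes and 75 windows for 69 of the 78 mitochondrial genes. Rps29, Rpl36 and Rplp1 were among the members with no entry.

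Within 20 bases either side of the start, CTTTCC on the gene's strand was found in 10 of the 67 core windows (14.9%), in 1 of the 75 mitochondrial windows (1.33%) and in 1.95% of all 32851 windows. On the other strand it was found in 0 of 67 and 1 of 75 windows, and in 1.74% of all. The factor sites, searched over the whole 300 bases on both strands, did not separate the sets in this way. CCGGAAG was in 37.3% of core and 34.7% of mitochondrial windows, against 8.86% of all. AAGATGGC was in 10.4% and 16.0%, against 2.75% of all, and the NRF1 palindrome in 2.99% and 4.0%, against 0.971% of all. These are matches of letters, not measured binding.

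The comparison of sorafenib with control asked which ribosomal protein transcripts differed between treated and untreated Th9 cells. Over all 6 libraries no member of either set reached an adjusted p of 0.05 in edgeR's quasi-likelihood test (Benjamini-Hochberg, over all tested genes), which called 17.9% of all tested genes. In the cytosolic set, 0 of 88 genes were called, 0 had an unadjusted p under 0.05, and DESeq2 and limma-voom called 0. In the mitochondrial set, 0 of 78 were called and 6 had an unadjusted p under 0.05, against 30.9% of all tested genes. DESeq2 and limma-voom each called 1 mitochondrial gene, Mrps6. The median log2 fold change, sorafenib minus control, was -0.03 in the cytosolic set, 0.01 in the mitochondrial set and -0.01 over all tested genes. The cytosolic median lay below 0 under the TMM scaling and above it, at 0.05, when libraries were scaled to total counts alone, a scaling that also moved the median of all genes to 0.07.

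Within the cytosolic core, log2 fold changes ran only from -0.22 to 0.26, with 18 of 77 above 0. The medians were -0.06 in the large and -0.03 in the small subunit. The 95% confidence intervals of the 77 genes together spanned -0.57 to 0.59. The median standard error was 0.133 over the 6 libraries and 0.0555 when control 2 was left out, while over all tested genes it was 0.112 and 0.098. The mitochondrial genes ran from -0.27 to 0.36, with 40 of 78 above 0, and their medians were 0.01 in the large and -0.01 in the small subunit.

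Control 2 carried the highest level of every one of the 77 core genes and of 57 of the 78 mitochondrial genes. Of the other 21 mitochondrial genes, 3 were highest in control 3, 4 in sorafenib 1, 10 in sorafenib 2 and 4 in sorafenib 3. Relative to the mean of controls 1 and 3, control 2 was higher by a median factor of 1.39 over the core (1.23 to 1.6) and 1.23 over the mitochondrial set (0.941 to 1.61), and the factor over all tested genes was 1.0. Mrps18b at 0.941, Mrpl55 at 0.944 and Mrps31 at 0.993 were the mitochondrial genes that were not higher in control 2 than in the mean of the others. The sorafenib libraries differed far less, with a median ratio of the highest to the lowest of 1.06 in the core, 1.10 in the mitochondrial set and 1.13 over all tested genes.

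**Figure D1:**
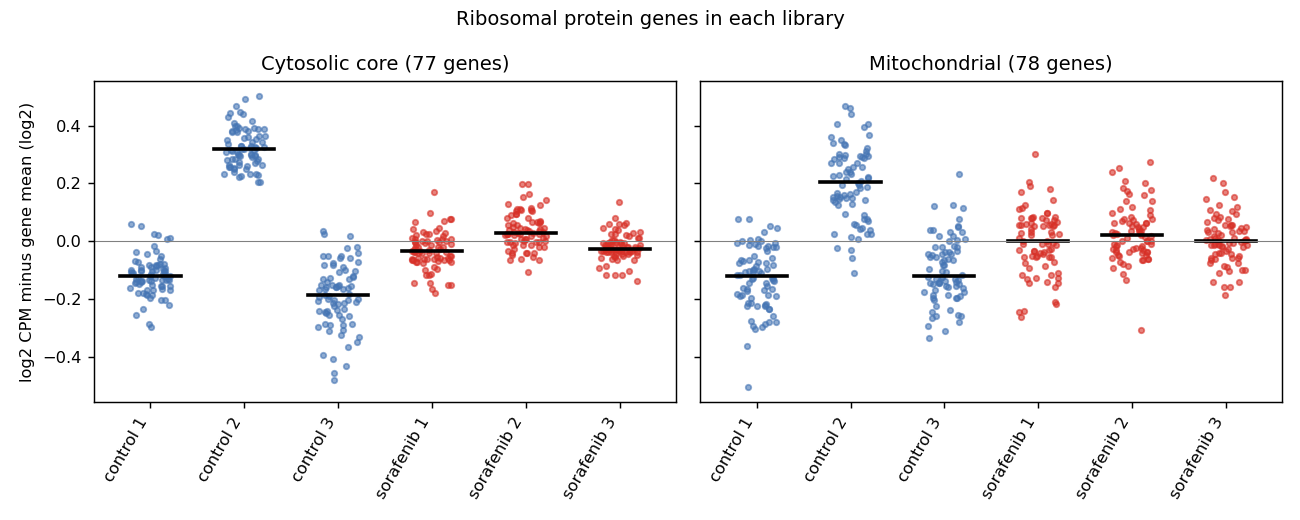
Each point is 1 gene in 1 library: its log2 CPM less its own mean over the 6 libraries (vertical axis, log2), for the 77 cytosolic core genes (left) and the 78 mitochondrial genes (right). Black bars are library medians, blue points are control and red points sorafenib libraries. The medians of control 2, 0.32 for the core and 0.20 for the mitochondrial set, are the highest, and the medians of controls 1 and 3 lie below those of the sorafenib libraries.

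As shares of all counts, the cytosolic set took 14.2%, 17.5% and 13.8% in controls 1 to 3 and 15.4%, 16.0% and 15.5% in the sorafenib libraries. The control mean was 15.2% ± 2.07 (SD, n = 3), the sorafenib mean 15.6% ± 0.323 (SD, n = 3), and the mean of controls 1 and 3 was 14.0%. The mitochondrial set took 0.238%, 0.273% and 0.240% in controls and 0.262%, 0.269% and 0.263% in sorafenib libraries. Its means were 0.250% ± 0.0199 and 0.265% ± 0.00391 (SD, n = 3 each), with 0.239% for controls 1 and 3. In both sets the sorafenib libraries lay inside the range of the controls, between control 2 above and the other two below.

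The ratio between the sets was taken in each library. The summed cytosolic level was 59.8, 64.2 and 57.4 times the summed mitochondrial level (in CPM) in controls 1 to 3 and 58.8, 59.4 and 59.0 times in the sorafenib libraries. The mean ratios were 60.5 ± 3.46 in control and 59.1 ± 0.349 in sorafenib libraries (SD, n = 3 each). Their difference, -1.39, was smaller than the spread of the controls, and it became 0.486 without control 2. On summed FPKM the ratios were 95.3 ± 5.30 and 94.1 ± 0.966 (SD, n = 3 each). Groups overlapped on either scale.

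**Figure D2:**
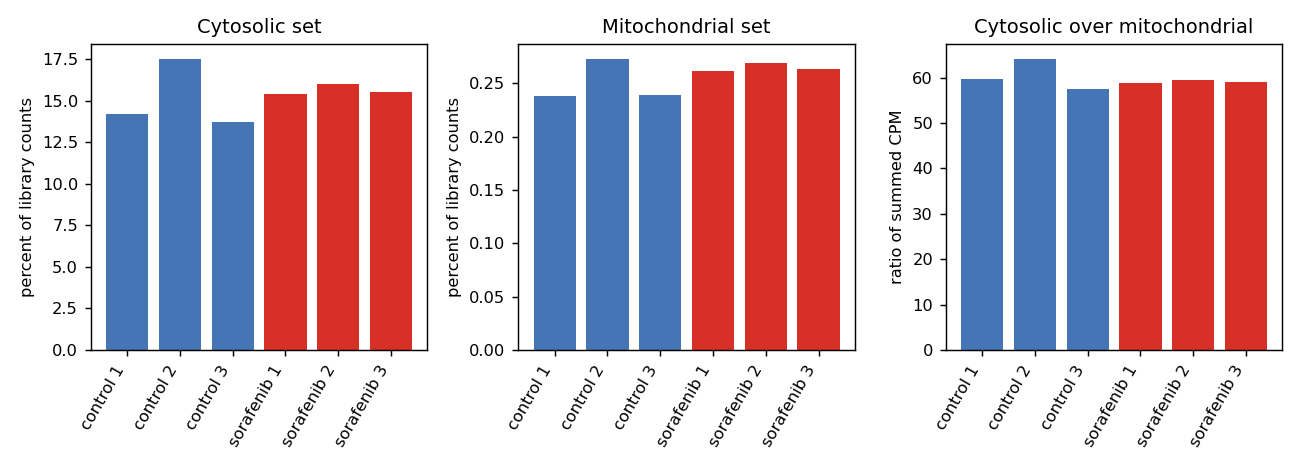
Bars give, for each library, the cytosolic set (left) and the mitochondrial set (centre) as percent of all counts, and the ratio of their summed CPM (right). Blue bars are control and red bars sorafenib libraries. Control 2 is highest in each panel, and the sorafenib libraries lie between it and control 3.

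Gene length moved with these differences. The core genes had a median length of 821 bases and the mitochondrial genes of 1505.5 bases, against 3563 bases over all tested genes. The shortest decile of tested genes, 105 to 1269 bases, held 64 of the 88 cytosolic and 34 of the 78 mitochondrial genes. Among the other genes of that decile, which are not ribosomal, the median deviation from the gene mean was 0.25 (log2) in control 2, -0.07 in control 1 and -0.11 in control 3, and it lay between -0.03 and 0.03 in the sorafenib libraries. In the longest decile, which held no member, it was -0.19 in control 2, 0.14 in control 1 and 0.06 in control 3. Controls 1 and 3 also differed by length: control 1 exceeded control 3 in 31 of 37 core genes under 800 bases, by a median factor of 1.07, and in 21 of 40 longer ones, with a median factor of 1.01. Relative to the mean of controls 1 and 3, control 2 was higher by a median factor of 1.42 in core genes under 800 bases and 1.35 in longer ones. In the mitochondrial set these factors were 1.31 and 1.21. Whether length accounts for the members' values in control 2 was not tested.

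**Figure D3:**
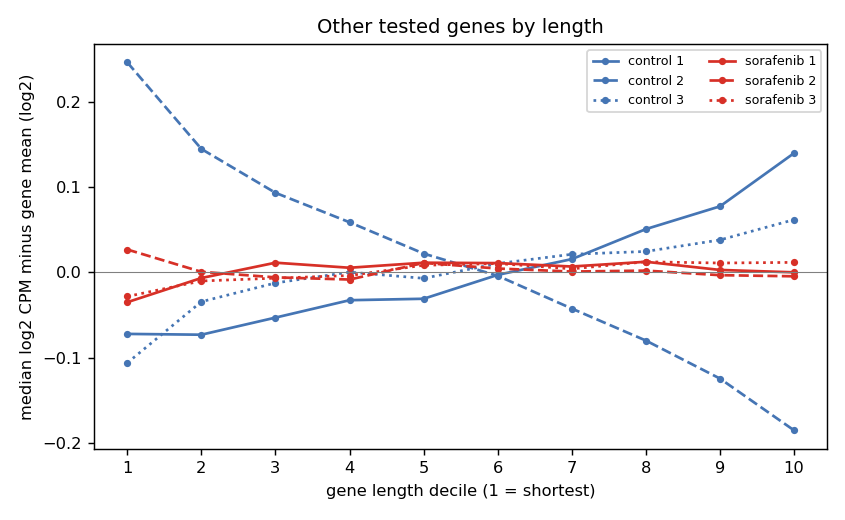
Tested genes other than the ribosomal protein genes were cut into deciles by length (horizontal axis, 1 the shortest). The vertical axis is the median log2 CPM less the gene's own mean (log2), with 1 line per library, blue for control and red for sorafenib. Control 2 falls from 0.25 in the shortest to -0.19 in the longest decile, control 1 rises from -0.07 to 0.14, and the sorafenib lines stay near 0.

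Without control 2, members of both sets were called higher with sorafenib and none lower. In edgeR's fit to the remaining 5 libraries, 32 of 88 cytosolic genes (36.4%) and 15 of 78 mitochondrial genes (19.2%) were called. Of all tested genes 31.8% were called, with 15% called higher and 16.8% lower. The mitochondrial share called higher thus lay near that of all tested genes, and the cytosolic share above it. The 32 comprised 16 of 46 large-subunit and 14 of 31 small-subunit core genes, together with Rps27l and Rpl37rt. The 15 comprised 8 of 49 large-subunit and 7 of 29 small-subunit mitochondrial genes. The median log2 fold change was 0.14 in the cytosolic, 0.13 in the mitochondrial set and 0.01 over all genes, and 87 of 88 cytosolic and 65 of 78 mitochondrial values lay above 0. Whether the sets differed from each other in this respect was not tested.

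In a fit that kept control 2 and removed each library's trend with gene length, some members were called that the fit to 6 libraries without this step had not called. That fit called 24.1% of all tested genes (11.4% higher and 12.7% lower), with 4 of 88 cytosolic genes higher (among them Rpl35a, Rps26 and Rps29) and 6 of 78 mitochondrial genes higher (Mrpl13, Mrpl16, Mrpl44, Mrpl47, Mrps5 and Mrps6). Mrpl33 and Mrpl51 were called lower. With control 2 left out and the length trend removed, 31.6% of all tested genes were called (14.9% higher and 16.6% lower). In that fit 14 cytosolic genes (15.9%) were higher and Rpl24 was lower, and 11 mitochondrial genes (14.1%) were higher with Mrpl33 and Mrpl51 lower. Both shares called higher thus lay near that of all tested genes. Of the 32 cytosolic genes called without control 2, 13 were called here, and of the 15 mitochondrial genes, 9. The same 4 cytosolic and 6 mitochondrial genes called higher with the length trend removed were called in each of these 3 fits. In the length-trend fit on 6 libraries they made up 4.55% and 7.69% of their sets, under the 11.4% of all tested genes. The 3 fits reuse the same libraries, and the shares of all tested genes with calls common to these fits were not computed.

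**Figure D4:**
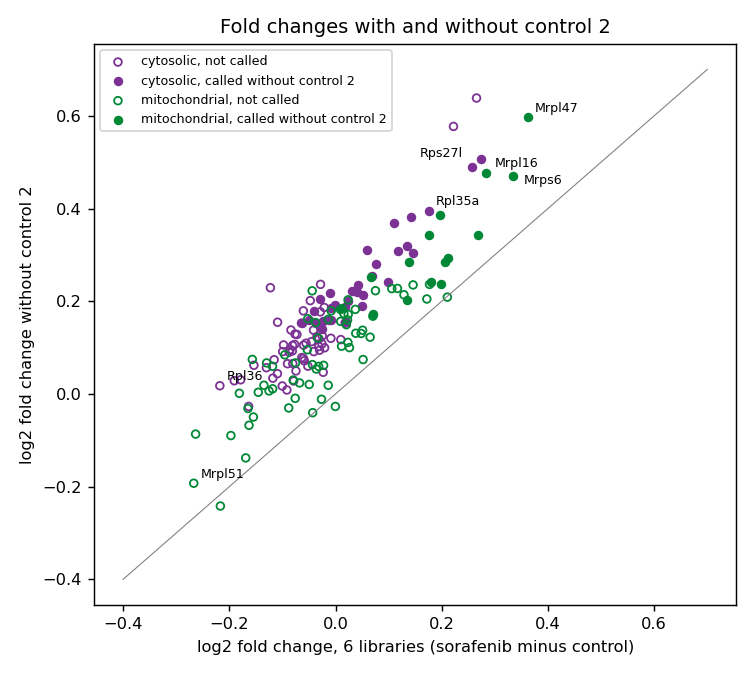
Each circle is a tested ribosomal protein gene. The horizontal axis is its log2 fold change, sorafenib minus control, over 6 libraries and the vertical axis the same without control 2, with the line of equal values in grey. Purple is the cytosolic and green the mitochondrial set, and filled circles are genes called at an adjusted p under 0.05 without control 2. Most members lie above the line, and the 32 and 15 filled circles lie toward the upper right.

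Rpl35a, of the large subunit, and Rps26 and Rps29, of the small subunit, were among the 4 cytosolic genes. Rpl35a and Rps26 are known to be mutated in Diamond-Blackfan anaemia. Rpl35a stood at 801, 1135 and 723 CPM in controls 1 to 3 and at 997, 1020 and 985 CPM in the sorafenib libraries. Control 2 lay above all 3 sorafenib libraries and the other controls well below, so the groups overlapped. Its log2 fold change was 0.18 ± 0.147 (SE; adjusted p = 0.47, edgeR) over 6 libraries and 0.40 ± 0.0573 (SE; adjusted p = 2.7e-05) without control 2, when the groups no longer overlapped.

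Rps26 stood at 1019, 1402 and 1067 CPM against 1283, 1309 and 1265 CPM. Here too control 2 was the highest and the other controls were the lowest of the 6 libraries, and its log2 fold change was 0.14 over 6 libraries and 0.30 (adjusted p = 2.4e-04, edgeR) without control 2. Rps29, a small zinc-binding protein gene of the small subunit, gave 705, 974 and 564 CPM against 778, 888 and 807 CPM, with log2 fold changes of 0.14 and, without control 2, 0.38 (adjusted p = 0.0094, edgeR).

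Rps27l showed the largest log2 fold change of the cytosolic genes at mean levels of at least 3 log2 CPM. It stood at 77.9, 114 and 71.9 CPM in controls and 102, 110 and 107 CPM in sorafenib libraries. The groups overlapped through control 2 alone. The log2 fold change was 0.27 (adjusted p = 0.24, edgeR), and 0.51 (adjusted p = 3.6e-06) without control 2. Its partner Rps27, which encodes the more abundant form, moved otherwise, at 910, 1217 and 755 CPM in controls and 790, 915 and 841 CPM in sorafenib libraries. The sorafenib libraries lay inside the range of the controls, and the log2 fold change was -0.18 (adjusted p = 0.48, edgeR), or 0.03 (adjusted p = 0.81) without control 2. The difference between the partners was not tested.

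Rpl36 and Rpl38, genes of small large-subunit proteins, had the lowest log2 fold changes of the core. Rpl36 stood at 922, 1289 and 766 CPM in controls and 822, 900 and 838 CPM in sorafenib libraries, and Rpl38 at 574, 761 and 451 CPM against 495, 557 and 512 CPM. Their groups overlapped with and without control 2. The log2 fold change of Rpl36 was -0.22 (95% interval -0.57 to 0.14) over 6 libraries and 0.02 without control 2, and that of Rpl38 -0.19 (-0.54 to 0.16) and 0.03. Rpl24, another large-subunit gene, gave 1335, 1722 and 1328 CPM against 1269, 1356 and 1290 CPM. Its log2 fold change was -0.16 over 6 libraries and -0.03 without control 2, and it was called lower, at -0.13 (adjusted p = 0.047, edgeR), when control 2 was left out and the length trend removed together.

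Rpl31 and Rps20 were called only in fits without control 2 among the 3 fits compared here. Rpl31 stood at 823, 1151 and 819 CPM in controls and 1017, 1050 and 1000.0 CPM in sorafenib libraries, with a log2 fold change of 0.13 over 6 libraries and 0.32 (adjusted p = 1.3e-04, edgeR) without control 2. Rps20 gave 1209, 1661 and 1128 CPM against 1421, 1481 and 1435 CPM, with 0.12 and 0.31 (adjusted p = 2.7e-04, edgeR). In both genes the sorafenib libraries lay together between control 2 and the other controls.

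The members with roles beyond the ribosome showed the same picture. Rpl5 and Rpl11, whose proteins bind MDM2 and so stabilise p53 when ribosome assembly fails, had log2 fold changes of -0.03 and -0.06, with 95% intervals of -0.30 to 0.24 and -0.39 to 0.26. Without control 2 they were 0.10 (adjusted p = 0.16, edgeR) and 0.15 (adjusted p = 0.040). Rps6, whose protein is the classic target of S6 kinase, had -0.03 and Rpl13a, known as a translational silencer in the interferon response, -0.08, and neither was called without control 2. Rps19, the gene most often mutated in Diamond-Blackfan anaemia, had 0.11 over 6 libraries and 0.37 (adjusted p = 0.034, edgeR) without control 2.

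Among the stalk genes, Rplp0, Rplp1 and Rplp2 had log2 fold changes of -0.10, -0.03 and -0.10 over 6 libraries. Rplp1 was called without control 2, at 0.21 (adjusted p = 0.027, edgeR), so its value changed sign with that library, while Rplp0 gave 0.02 and Rplp2 0.09 and neither was called. Rpsa, which encodes a small-subunit protein also known as the laminin receptor, had -0.07 and, without control 2, 0.05. Rpl10, whose protein completes the large subunit late in assembly, had 0.02 and, without control 2, 0.19 (adjusted p = 0.0099, edgeR). Rpl3, at the peptidyl transferase centre, and Rps4x had -0.01 and -0.03, and 0.12 and 0.11 without control 2, where neither was called.

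The other paralogs were set beside their partners. Rpl22 and Rpl22l1 had log2 fold changes of -0.08 and -0.03, Rpl7 and Rpl7l1 -0.04 and -0.02, and Rpl36a and Rpl36al -0.12 and -0.10, and none of these was called with or without control 2. Rpl39 had -0.05, and Rpl39l, a paralog best known from testis, had 0.22 ± 0.426 (SE) at 0.320 to 0.842 CPM, too low to tell a difference at this depth. Rpl10l and Rps4l were not in the table used here.

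Of the mitochondrial genes, Mrps6, which encodes a small-subunit protein, came closest to a call. It stood at 26.2, 33.5 and 25.6 CPM in controls and 36.6, 36.7 and 34.1 CPM in the sorafenib libraries. All 3 sorafenib libraries lay above all 3 controls, including control 2. Its log2 fold change was 0.33 ± 0.108 (SE; adjusted p = 0.057, edgeR), and 0.47 ± 0.0769 (SE; adjusted p = 1.1e-04) without control 2. It was called in 13 of 21 alternative analyses, with adjusted p between 7.0e-05 and 0.22.

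The differences of Mrpl47 and Mrpl16, genes of large-subunit proteins, rested more on which controls were used. Mrpl47 stood at 5.81, 9.61 and 6.74 CPM in controls and 10.2, 9.75 and 8.50 CPM in sorafenib libraries, so that control 2 lay among the sorafenib values. Its log2 fold change was 0.36 (adjusted p = 0.20, edgeR), and 0.60 (adjusted p = 0.0025) without control 2. Mrpl16 gave 13, 19.1 and 13.7 CPM against 17.7, 20.2 and 17.8 CPM, with 0.28 (adjusted p = 0.21, edgeR) and 0.48 (adjusted p = 0.0014). Control 2 again lay among the sorafenib libraries and the other controls below them.

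Mrpl44, a gene of a large-subunit protein with a ribonuclease-type fold, stood at 28.5, 33.5 and 28.7 CPM in controls and 34.0, 36.7 and 34.4 CPM in sorafenib libraries. The groups did not overlap, though control 2 came close to them. Its log2 fold change was 0.21 (adjusted p = 0.13, edgeR), and 0.29 (adjusted p = 0.0059) without control 2. Mrps5, a small-subunit gene, gave 38, 43.2 and 42.5 CPM against 47.2, 48.6 and 46.2 CPM, with 0.20 (adjusted p = 0.11, edgeR) and 0.24 (adjusted p = 0.015). Mrps28, of the small subunit, had log2 fold changes of 0.27 and, without control 2, 0.34 (adjusted p = 0.038, edgeR), and Mrpl13, of the large subunit, 0.20 and 0.39 (adjusted p = 0.0024).

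Mrpl51, a large-subunit gene, had the lowest log2 fold change of the mitochondrial set. It stood at 23.0, 26.8 and 23.4 CPM in controls and 18.7, 21.5 and 20.7 CPM in sorafenib libraries, with every sorafenib library below every control. The log2 fold change was -0.27 ± 0.0961 (SE; adjusted p = 0.084, edgeR), and -0.19 (adjusted p = 0.11) without control 2. Mrpl33 followed with -0.26 (adjusted p = 0.21, edgeR), but its sorafenib values of 29.9, 34.6 and 31.0 CPM overlapped the controls at 36.5, 47.0 and 31.3 CPM. Mrpl55 and Mrpl54 had -0.22 and -0.20, and neither was called without control 2.

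**Figure D5:**
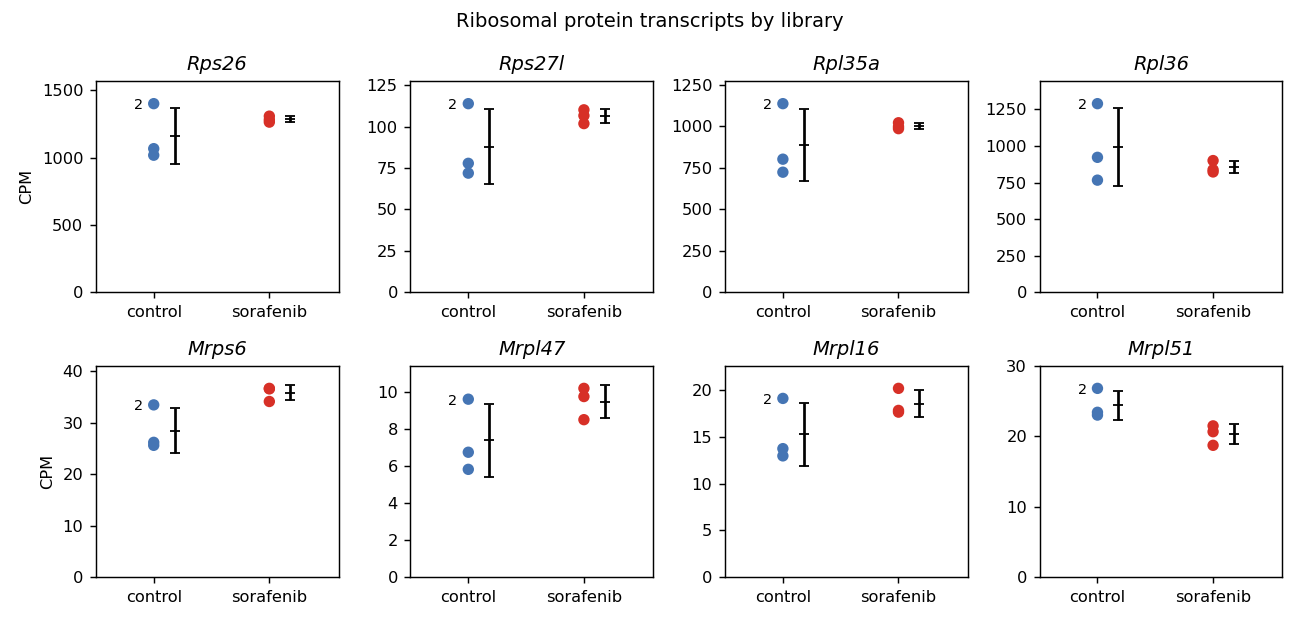
CPM (vertical axes, from 0) of 8 ribosomal protein genes, 4 cytosolic above and 4 mitochondrial below, with 1 point per library and the mean with its SD (n = 3) beside the points. The control marked 2 is control 2. It is the highest control in each panel, and only in Mrps6 and Mrpl51 do the sorafenib points lie wholly outside the range of the controls.

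The mitochondrial genes with known special roles did not reach a call over 6 libraries. Mrpl12, whose protein also binds the mitochondrial RNA polymerase, had a log2 fold change of 0.01 and, without control 2, 0.18 (adjusted p = 0.043, edgeR). Mrps12, at the decoding centre, had -0.04 and 0.15. Mrps27 and Mrps35 had 0.18 and 0.14 over 6 libraries and were called without control 2, at 0.24 (adjusted p = 0.046, edgeR) and 0.20 (adjusted p = 0.038). Mrpl58, a ribosome-bound peptidyl-tRNA hydrolase, had 0.02 and 0.17 and was called in neither fit.

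By the CPM of single libraries, no cytosolic gene had groups that did not overlap, against 36.3% of all tested genes. In the mitochondrial set 10 of 78 (12.8%) did not overlap: Mrpl1, Mrpl44, Mrps5, Mrps6, Mrps28 and Mrps31 higher with sorafenib, and Mrpl19, Mrpl43, Mrpl51 and Mrps10 lower. To see how members moved relative to their own set, each library's set median was subtracted from the members' log2 CPM. On that scale 21 of 88 cytosolic genes (23.9%) did not overlap, 11 higher and 10 lower, against 21.4% of all tested genes treated alike. Rpl35a then lay at -0.10, -0.04 and -0.18 in controls and 0.13, 0.10 and 0.10 in sorafenib libraries, and Rpl24 at 0.07, 0.0036 and 0.14 against -0.09, -0.06 and -0.07. In the mitochondrial set 16 of 78 (20.5%) did not overlap, 8 in each direction, against 28.2% of all genes treated alike. The cytosolic share lay near that of all genes and the mitochondrial share under it. Subtracting a set's own median acts differently on its members and on other genes, whose share was 36.3% without this step. These shares therefore cannot show whether members moved more or less than other genes. A fit scaled to the cytosolic genes themselves called 0 of 88 cytosolic and 0 of 78 mitochondrial genes, and 703 of all tested genes.

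Other genes of the translation machinery were read from 6 lists. None of the 3 cytosolic ribosome genes without Rpl or Rps names was called; Fau, which encodes RPS30 as a fusion, had the smallest p, with a log2 fold change of -0.25 (adjusted p = 0.30, edgeR). None of 20 translation factors of the TOP class was called, and Tpt1, a TOP gene of a growth-related protein, had -0.33 (adjusted p = 0.11, edgeR). Without control 2 this changed: Nap1l1, Eef1g, Hnrnpa1 and Eef1b2 were called higher and Tpt1 lower, at -0.19 (adjusted p = 0.015, edgeR), where 15% of all tested genes were called higher and 16.8% lower. None of 5 mitoribosome genes without Mrp names (Ptcd3 had 0.11) and none of 15 mitochondrial translation factors was called, over 6 libraries or without control 2, and neither were the 3 cytosolic genes. Mtrf1, a mitochondrial release factor gene, had 0.48 (adjusted p = 0.096, edgeR).

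Calls were found in the 2 remaining lists. Of 11 genes listed as linked to the control of TOP messages, 4 fell (36.4%) and none rose, against 9.43% of all tested genes called lower. Without control 2, 5 fell (45.5%), these 4 and Larp4, against 16.8% of all tested genes called lower in that fit. The calls depended on the scaling: 0 of 11 were called on total counts alone, in each of the 3 log2 FPKM fits or when scaled to the cytosolic genes, and 2 with upper-quartile factors or with a block for the replicate number. Rps6kb1, the S6 kinase gene left out of the members by name, stood at 54.5, 54.4 and 52.8 CPM in controls and 45.5, 44.7 and 44.1 CPM in sorafenib libraries, with control 2 inside the range of the other controls. It fell by 0.27 on the log2 scale (adjusted p = 0.020, edgeR), and Rps6kb2 fell by 0.33 (adjusted p = 0.034). Tia1 and Tial1, which encode RNA-binding proteins that can repress TOP messages, had log2 fold changes of -0.45 (adjusted p = 0.034) and -0.24 (adjusted p = 0.046). Rps6kb1 and Rps6kb2 lost the call without control 3 or any single sorafenib library, and Tia1 and Tial1 without control 1, control 3 or any single sorafenib library, with adjusted p up to 0.11 for Rps6kb1, 0.14 for Rps6kb2, 0.14 for Tia1 and 0.21 for Tial1.

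Of 26 mitoribosome assembly and rRNA factors, 3 rose (11.5%) and none fell, against 8.51% of all tested genes called higher. Without control 2, 5 rose (19.2%), these 3 with Rbfa and Ybey, against 15% of all tested genes called higher in that fit. Both shares thus lay near those of all tested genes. In the fit scaled to the cytosolic genes 0 were called. Tfb1m, whose enzyme methylates the small mitochondrial rRNA, stood at 5.23, 6.12 and 5.97 CPM in controls and 9.24, 7.87 and 7.91 CPM in sorafenib libraries. Every sorafenib library lay above every control, and its log2 fold change was 0.53 (adjusted p = 0.018, edgeR). Gtpbp10, a GTPase of large-subunit assembly, rose by 0.43 (adjusted p = 0.016) and Noa1, a GTPase gene of mitochondrial ribosome assembly, by 0.33 (adjusted p = 0.035). Tfb1m lost the call without control 1, sorafenib 1 or sorafenib 3 (adjusted p up to 0.094), Gtpbp10 without any single sorafenib library (up to 0.091), and Noa1 without control 1, control 3, sorafenib 1 or sorafenib 3 (up to 0.16).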

How the data were processed

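Per the labels' protocols, RNA was isolated with TRIzol and sequenced from VAHTS Universal V5 libraries. The authors deposited a table of counts per gene and a table of FPKM values for the 6 libraries, with 0 columns of other samples. The submitters' processing notes name fastp, HISAT2, HTSeq, R 3.2.0, DESeq2 and the build GRCm39. The use of strand and the handling of reads that map to several places are not stated there, so overlapping genes, paralogs and genes with processed copies are uncertain.

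The deposited counts were tested with edgeR 4.0.16 in R 4.3.3 (TMM factors, filterByExpr, robust quasi-likelihood F test, group as the only term, Benjamini-Hochberg adjustment over all tested genes, threshold 0.05). Residual degrees of freedom were 4, and the biological coefficient of variation was 10.9%. CPM values are counts divided by the TMM-scaled library size. Set medians for library comparisons used log2 CPM with 0.5 added to counts. FPKM from the deposited table was used for levels between genes and, with counts, for gene lengths, which were the same from every library to a relative 3.09e-07. The length trend was removed as a lowess curve (span 0.3) of each library's deviation on log length. The script was tested on simulated data.

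Members and lists were chosen with earlier results of these data known. The text names, in each set, the 4 highest and 4 lowest log2 fold changes at a mean of at least 3 log2 CPM, a fixed list of members with known roles, the 2 highest and 2 lowest by FPKM, and up to 6 members per set whose call differs without control 2. In each pathway list it names up to 3 called genes, otherwise the one with the smallest p. Tial1, Mrps5, Rps29, Mrps31 and the other genes listed by name in counts were named after their values were seen. Alternatives were DESeq2 1.42.0, limma 3.58.1 (voom, and log2 FPKM with 1 or 0.1 added), other scalings and filters, the length trend, a block for the replicate number, and leaving out each library. No score over members was tested. Some items that these rules would name are not reported here.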

Additional observations from a re-analysis of the deposited data

How the results depend on the processing

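The count of cytosolic ribosomal protein genes called stayed at 0 in 17 of 21 refits. It was 4 with the gene length trend removed and 0 to 32 when single libraries were left out, 32 coming from the fit without control replicate 2. Of the mitochondrial genes, 0 were called in 8 of 21 refits. Upper-quartile factors, no filter on low counts, DESeq2 and limma-voom gave 1, total counts only and log2(FPKM + 1) without a filter gave 3, both filtered log2 FPKM fits gave 7, the length trend removed gave 8, and leaving out single libraries gave 0 to 15, again 15 without control replicate 2. All genes called, 2378 in the fit reported, were 1423 on log2(FPKM + 1) without a filter, 1227 at a threshold of 0.01 and 1243 to 4325 when single libraries were left out. Scaling to total counts gave 1496 higher and 826 lower, against 1128 and 1250. The 7 pathway genes called became 4 with total counts only, none of them from the list linked to TOP messages. They became 3 on log2(FPKM + 1) without a filter, 0 at a threshold of 0.01 and 0 to 15 when single libraries were left out.

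Alternatives chosen after seeing the data combined choices. Without control replicate 2 and with the length trend removed, 15 cytosolic, 13 mitochondrial, 4289 of all and 15 pathway genes were called. Without control replicate 2 and on total counts, these were 46, 25, 4424 and 20. Scaled to the cytosolic genes, 703 of all genes and 0 pathway genes were called. Log2 fold changes that were negative over 6 libraries became positive calls without control replicate 2 for Rplp1 (-0.17 to 0.21 over the single libraries left out) and Rpl11 (-0.16 to 0.15), and without it on total counts for Rplp1 (0.24), Rpl11 (0.19), Rpl5 (0.14), Rpl3 (0.16) and Rps4x (0.14). The cause was not tested.

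Control and sorafenib libraries share the numbers 1 to 3, but the correlations of deviations of same-numbered libraries were -0.20, 0.03 and 0.13, so the numbers were not taken as pairs. With the replicate number as a block, 1 mitochondrial and 4 pathway genes were called. With 3 libraries a group and a control that stands apart, the 95% intervals of all 77 core genes included 0 over 6 libraries. In the mitochondrial set, 6 of 78 genes had an unadjusted p under 0.05 (edgeR). Genes near 3 counts could not be resolved.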
